A study of Mus musculus with 9 samples.

Results

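The genes described here are 6 matrix metalloproteinase genes (Mmp2, Mmp3, Mmp9, Mmp13, Mmp14 and Mmp15) and the 4 tissue inhibitor of metalloproteinases genes (Timp1 to Timp4), 10 of the 14300 genes listed in both deposited tables. They were chosen by symbol, and Mmp13 was chosen because it is lower with dihydrotestosterone (DHT), a potent androgen, so its difference between those groups is given as a description with no test. The tissue is the tibialis anterior, a fast muscle of the lower leg, taken from C57BL/6J males, with 9 RNA libraries in 3 groups of 3. The groups were control mice (called sham in the tables), mice without testes (orchiectomised, ORX) and orchiectomised mice given DHT (ORX+DHT), sampled 4 weeks after treatment. Both ORX groups lack the testes, and the sources used here give no age, no DHT dose or route, and no statement on pooling of animals.

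Matrix metalloproteinases are zinc enzymes that cut proteins of the extracellular matrix. Most are secreted as inactive precursors, and the membrane-type enzymes stay anchored at the cell surface. The tissue inhibitors bind the active enzymes and block them, and the balance of the 2 families is used to describe matrix turnover in muscle growth, wasting and repair. Transcript levels do not measure enzyme activity.

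Reads per library numbered 1340209 to 1682235, and 12398 to 13000 genes had reads. Control replicate 1 stood apart on the first principal component (30.7% of the variance), at -47.2 against 0.716 to 10.6 for the other 8 libraries, and the differences of Mmp14 and Timp3 from controls are also given without it. Muscle fibre genes (Ckm, Acta1, Myh4, Myh1, Pvalb and Atp2a1) summed to between 222663 and 235233 normalised counts in the ORX libraries, between 236127 and 253424 with DHT and between 260242 and 279676 in controls. These sums did not overlap between groups and ran opposite to Mmp13, Mmp2 and Mmp14 between ORX and the other groups. Acta1 alone ran from 46190 to 46910 in ORX and from 59434 to 68735 with DHT. Of the 6 genes, 3 had positive and 3 negative differences with DHT against ORX (median -0.009). The part of these genes in the results was not tested. In bulk tissue fewer cells of a type and less RNA per cell cannot be told apart. The labels call the replicates biological but do not tie them to animals, so p-values measure only the spread between these samples.

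Levels are normalised counts on 1 scale for all 9 libraries. Levels per kilobase of exon use the merged length of all annotated exons of a gene, used or not, so they compare genes only roughly. On this measure Timp2 stood highest in every group, with means of 47.3 in controls, 56.0 in ORX and 45.0 in ORX+DHT. Mmp2, a gelatinase that cuts denatured collagen and the collagen of basement membranes, came next in every group at 25.6, 43.1 and 23.5. Mmp13 ranked 3 in ORX at 33.1 per kilobase (22.3 to 44.8) and 8 in ORX+DHT at 1.24 (0.36 to 1.85). Its ORX range overlapped that of Mmp2 (33.6 to 55.3) and lay above that of Timp3 (13.5 to 15.5). The next 4 genes in ORX, Timp3, Mmp15 (12.3 to 15.8), Timp4 (6.00 to 13.8) and Mmp14 (8.19 to 10.7), each overlapped a neighbour. In ORX+DHT, Timp4 (15.8 to 21.7), Timp3 (14.4 to 19.5) and Mmp15 (13.9 to 15.9) overlapped in the middle of the order, above Mmp14 (2.04 to 4.54).

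**Figure D1:**
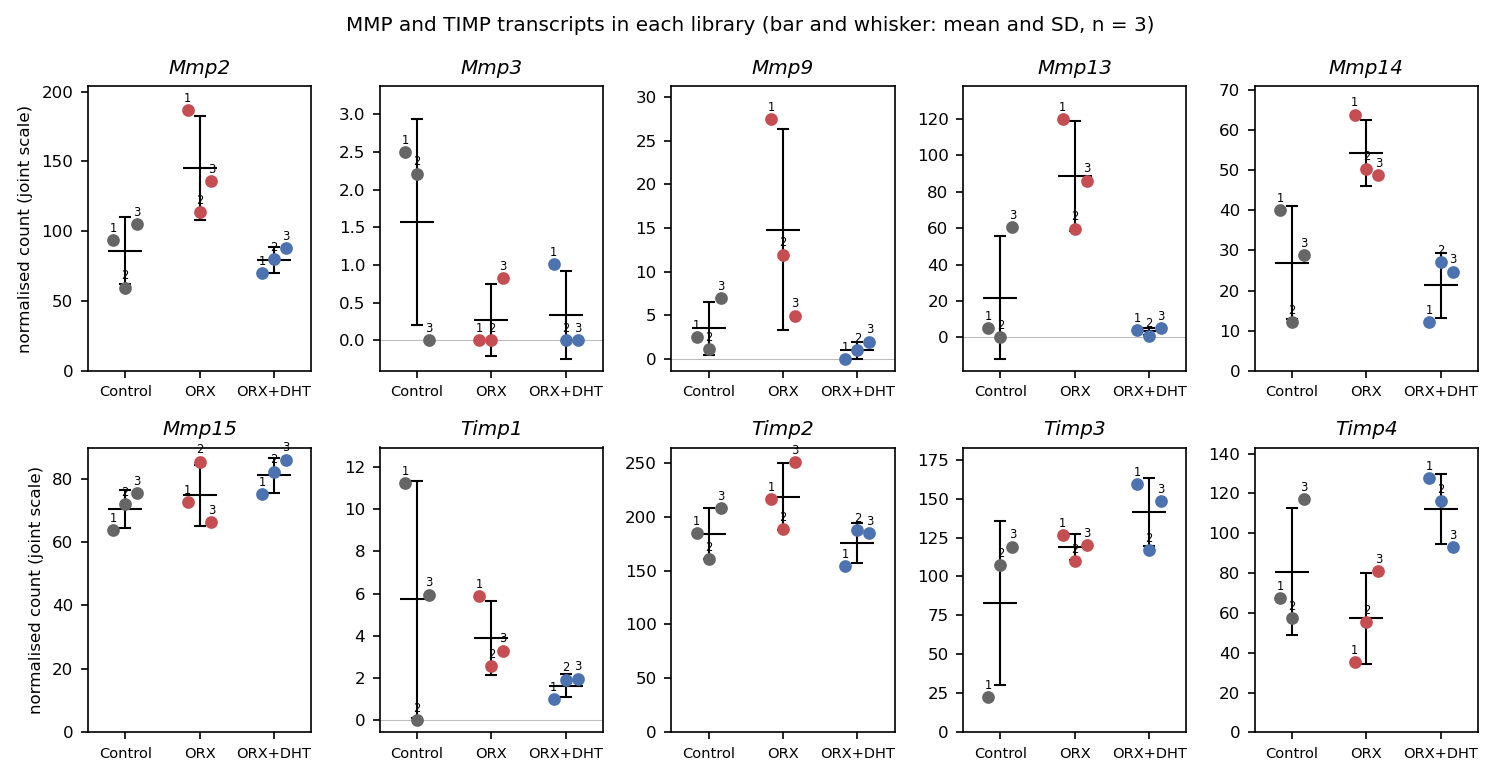
Normalised counts of the 10 genes in each of the 9 libraries (points, numbered by replicate), with bars at the group means and whiskers of 1 SD (n = 3). Mmp13 lies at 59.7 to 119.8 in the 3 ORX libraries and at 0.967 to 4.94 in the 3 ORX+DHT libraries, and control replicate 3 stands at 60.6 above the other controls.

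The regulatory DNA just before the start of 4 of these genes is shown first, since 3 have the largest differences with DHT among the 7 genes above the minimum level (Mmp13, Mmp14 and Timp4) and Mmp3 is a barely detected neighbour of Mmp13 on its chromosome. Each line is the 250 bases before the gene's start, 5′ to 3′ on the gene's strand, from RefSeq on GRCm38.p6, and 8 of the 10 genes had an entry in that table. The windows are chr9:7272264-7272513 (plus strand) for Mmp13, chr9:7445572-7445821 (plus) for Mmp3, chr14:54431348-54431597 (plus) for Mmp14 and chr6:115252206-115252455 (minus) for Timp4. Capitals mark matches to 4 motifs on either strand, and no matches overlapped. The letters TGAGTCA are bound by AP-1, a dimer of Fos and Jun proteins. RUNX factors, which direct bone and cartilage genes, bind the letters TGTGGTT. The factor SP1 binds GGGCGG, common in promoters rich in these bases. The last motif is TATAAA, which positions the start of transcription.
Mmp13: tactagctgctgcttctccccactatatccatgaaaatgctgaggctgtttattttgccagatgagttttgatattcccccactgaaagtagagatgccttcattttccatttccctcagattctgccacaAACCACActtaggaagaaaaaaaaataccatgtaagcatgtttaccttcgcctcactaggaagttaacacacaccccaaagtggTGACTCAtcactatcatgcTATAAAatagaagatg
Mmp3: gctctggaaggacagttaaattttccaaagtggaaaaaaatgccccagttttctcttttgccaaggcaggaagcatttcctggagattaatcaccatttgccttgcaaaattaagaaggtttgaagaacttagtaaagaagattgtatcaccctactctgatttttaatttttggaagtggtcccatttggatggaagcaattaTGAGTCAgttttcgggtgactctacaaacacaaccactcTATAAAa
Mmp14: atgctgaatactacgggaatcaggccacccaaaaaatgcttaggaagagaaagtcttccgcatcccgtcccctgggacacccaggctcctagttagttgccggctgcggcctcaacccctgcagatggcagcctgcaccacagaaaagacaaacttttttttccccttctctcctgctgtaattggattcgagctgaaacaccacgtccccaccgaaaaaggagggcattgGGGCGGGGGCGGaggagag
Timp4: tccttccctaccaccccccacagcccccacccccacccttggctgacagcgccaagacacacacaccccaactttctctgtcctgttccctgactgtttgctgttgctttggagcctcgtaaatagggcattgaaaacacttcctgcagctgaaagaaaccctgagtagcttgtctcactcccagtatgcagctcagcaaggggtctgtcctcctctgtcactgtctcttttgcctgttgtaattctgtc

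The Mmp13 window held a TGACTCA 35 bases before the start, an AACCACA 119 bases before and a TATAAA 16 bases before. Mmp3 held a TGAGTCA 46 bases before and a TATAAA 7 bases before the start. Mmp14 held 2 adjoining GGGCGG matches, 19 and 13 bases before its RefSeq start, and Timp4 held none of the motifs. That RefSeq start lies upstream of the Mmp14 gene start given below (54431612). Among 32851 promoter windows of the same length, 4.46% held TGAGTCA, 4.4% TGTGGTT, 32.74% GGGCGG and 12.37% TATAAA. The letters AGAACA, 1 arm of an androgen receptor site, were in 16.08% of windows and in none of the 8 windows of these genes. The full spaced palindrome of that site was in 0.01% of windows and also in none of the 8. Such matches are letters only, and nothing about binding was measured.

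Mmp13 (ENSMUSG00000050578, chr9:7272514-7283331, plus strand, GRCm38) encodes collagenase 3, which cuts fibrillar collagens and is best known from cartilage and bone. Its level was 119.8, 59.7 and 86.0 normalised counts in ORX replicates 1 to 3 and at 4.05, 0.967 and 4.94 in ORX+DHT. The controls stood at 4.99, 0 and 60.6. All ORX libraries were above all ORX+DHT libraries, while the controls spanned nearly the whole distance, with replicate 3 at the level of ORX replicate 2. The reads behind these values were 122, 70 and 104 in ORX, 4, 1 and 5 in ORX+DHT and 4, 0 and 61 in controls, where the count of 0 allows up to 3 reads. The ORX mean (88.5 ± 30.1, SD, n = 3) was 26.7 times the ORX+DHT mean (3.32 ± 2.09) and 4.05 times the control mean (21.9 ± 33.6).

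On the log2(value + 1) scale, which understates changes of low genes, the difference of Mmp13 between ORX+DHT and ORX was -4.49, given as a description. Against controls the ORX libraries were higher by 3.59 (95% interval 1.28 to 5.89, SE 1.05), which did not pass the test (limma adjusted p = 0.506). The size of this difference depended on the method. It was 2.12 with 10 added in place of 1, 4.76 with 0.1 added, 1.93 with edgeR and 2.03 with DESeq2. That comparison uses the ORX libraries on which Mmp13 was chosen. It depended on which control was left out: 2.16 without control replicate 2 (limma adjusted p = 0.542) and 5.14 without control replicate 3. The latter passed (limma adjusted p = 0.00381, with 0.243% of all genes called), but it removes the 1 control that lies near ORX, and Mmp13 then reaches the minimum level only through the ORX libraries, so nothing is read from it. ORX+DHT and control differed by -0.88 (95% interval -3.43 to 1.67, limma adjusted p = 0.867), and Mmp13 reached the minimum level for that test only through control replicate 3.

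Of the 2 gelatinases, Mmp2 fell with DHT and Mmp9 was too low for the test. Mmp2 (ENSMUSG00000031740, chr8:92827291-92853420) stood at 186.5, 113.4 and 135.7 normalised counts in ORX and at 69.9, 80.2 and 87.9 in ORX+DHT, with controls at 93.6, 59.7 and 105.3. ORX lay above both other groups without overlap, and controls and ORX+DHT overlapped. The fall from ORX to ORX+DHT was -0.84 in log2 (SE 0.16, 95% interval -1.17 to -0.50, limma adjusted p = 0.00347). The ORX to control difference was 0.75 (SE 0.24, 95% interval 0.23 to 1.28) and did not pass over all genes (limma adjusted p = 0.560).

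Mmp9 (ENSMUSG00000017737, chr2:164940780-164955850) encodes the gelatinase of leukocytes and osteoclasts. Its reads were 28, 14 and 6 in ORX, 0, 1 and 2 in ORX+DHT and 2, 1 and 7 in controls. ORX was above ORX+DHT in every library, and its lowest library was below the highest control. With the minimum level removed, the log2 difference of Mmp9 with DHT was -2.89 (SE 0.57, limma adjusted p = 0.00473, with 2.52% of all genes called), a call that ended on leaving out ORX replicate 1 (0.132), ORX replicate 2 (0.0618), ORX+DHT replicate 1 (0.0939) or ORX+DHT replicate 2 (0.0689). It is therefore described by its reads.

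Mmp14, the main membrane-type enzyme, which activates the Mmp2 precursor together with Timp2, fell with DHT, and Mmp15, another membrane-type enzyme, did not pass in any comparison. Mmp14 (ENSMUSG00000000957, chr14:54431612-54445364) stood at 63.8, 50.3 and 48.8 normalised counts in ORX, at 12.2, 27.1 and 24.7 in ORX+DHT and at 39.95, 12.2 and 28.8 in controls. Again ORX lay above the other 2 groups without overlap. The ORX+DHT to ORX difference was -1.38 in log2 (SE 0.25, 95% interval -1.91 to -0.85, limma adjusted p = 0.00274). The ORX to control difference of 1.12 (SE 0.35, 95% interval 0.35 to 1.89) missed the threshold (limma adjusted p = 0.546) and passed without control replicate 1, the library that stood apart (1.47, limma adjusted p = 0.0353, with 0.592% of all genes called). Without control replicate 2 it was 0.65 (limma adjusted p = 0.547).

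Mmp15 (ENSMUSG00000031790, chr8:95352268-95375080) ranged from 63.7 to 86.0 normalised counts over all 9 libraries. Its differences were 0.08 for ORX against control (95% interval -0.31 to 0.47) and 0.12 for ORX+DHT against ORX (95% interval -0.17 to 0.42). Mmp3 (ENSMUSG00000043613, chr9:7445822-7455975), stromelysin 1, which can activate other precursors of the family, had 0 to 2 reads in every library. No difference in Mmp3 was detectable at this depth.

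Of the 4 inhibitor genes, 1 passed with DHT. Timp4 (ENSMUSG00000030317, chr6:115241892-115252205, minus strand), known for its expression in heart and skeletal muscle, rose. It stood at 127.7, 116.0 and 92.9 normalised counts in ORX+DHT and at 35.3, 55.4 and 81.1 in ORX, with controls at 67.4, 57.5 and 117.2. The 2 ORX groups did not overlap, and controls reached into both. The rise was 1.02 in log2 (SE 0.22, 95% interval 0.57 to 1.48, limma adjusted p = 0.00901) and missed the threshold without ORX+DHT replicate 1 (0.92, limma adjusted p = 0.0733). ORX against control gave -0.50 (95% interval -1.19 to 0.19, limma adjusted p = 0.750).

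Timp2 (ENSMUSG00000017466, chr11:118301069-118355740, minus strand), which both inhibits Mmp2 and helps Mmp14 to activate it, ranged from 188.5 to 250.6 normalised counts in the ORX libraries, from 154.0 to 187.6 with DHT and from 160.3 to 207.6 in controls. ORX lay above ORX+DHT without overlap, by less than 1 count between the nearest libraries. The difference of -0.31 (SE 0.12, 95% interval -0.56 to -0.06) did not pass (limma adjusted p = 0.208).

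Timp3 (ENSMUSG00000020044, chr10:86300372-86349506), the inhibitor that binds to the matrix and also blocks ADAM proteases, ranged from 110.0 to 126.6 in the ORX libraries and from 117.0 to 159.1 with DHT. Controls stood at 22.5, 107.2 and 119.2, with the low value in replicate 1, the library that stood apart. Timp3 passed in no comparison, with 0.24 for ORX+DHT against ORX (limma adjusted p = 0.426) and 0.83 for ORX against control (limma adjusted p = 0.737). Without control replicate 1 the latter was 0.069 (limma adjusted p = 0.906). Timp1 (ENSMUSG00000001131, chrX:20870166-20874735), the inducible inhibitor, had 9, 0 and 6 reads in controls, 6, 3 and 4 in ORX and 1, 2 and 2 in ORX+DHT. It was below the minimum level, and without that minimum its difference with DHT was -0.88 (limma adjusted p = 0.517).

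Timp1, Timp3 and Timp4 lie inside the synapsin genes Syn1, Syn3 and Syn2, on the opposite strand. The libraries keep the strand, but whether the counting used it is not given in the sources used here. Syn1 had 0 to 2 reads per library, Syn3 0 to 1 and Syn2 1 to 4.

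Of the 10 genes, 7 reached the minimum mean of 10 normalised counts in each comparison, and Mmp3, Mmp9 and Timp1 did not. With DHT against ORX, 4 were called at a limma adjusted p under 0.05, where 4.08% of all 8770 genes tested were called. Mmp13 is 1 of these 4 by its choice, and the other 3 are Mmp2 and Mmp14 (lower) and Timp4 (higher). Calls in each direction over all genes made up 1.7% (lower) and 2.38% (higher). The groups did not overlap for Mmp13, by its choice, nor for 4 of the other 6, where 19.5% of all genes tested did not. These 4 were Mmp2, Mmp14 and Timp2, lower with DHT (9.13% of all genes), and Timp4, higher (10.4%). edgeR (4.2% of all genes) and DESeq2 (3.28%) called the same genes.

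In ORX against control no gene of the 10 was called, where 0.0579% of 8631 genes were. Unadjusted p was under 0.05 for 3 of the 7 (7.21% of all genes), and edgeR (0.0695% of all genes) and DESeq2 (0.344%) on recovered reads called 0. edgeR with no minimum level, added after the data were seen, called Mmp2, Mmp9, Mmp13 and Mmp14, with 0.754% of all genes called. Groups did not overlap for 2 of the 7 (14.3% of all genes), Mmp2 and Mmp14, both higher in ORX, against 6.28% of all genes in that direction. In ORX+DHT against control 0 were called (0.0349% of 8595 genes), 1 had an unadjusted p under 0.05 (6.48%) and 0 had groups without overlap (14% of all genes). edgeR (0.0465%) and DESeq2 (0.197%) called 0 there too. The comparisons share libraries, so the rise in ORX and the fall with DHT rest on the same 3 ORX libraries.

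With all 9 libraries in 1 fit, which takes in the spread of the controls, the DHT differences of Mmp2 (limma adjusted p = 0.0913), Mmp14 (0.103) and Timp4 (0.130) no longer passed, with 1.43% of all genes called. In ORX+DHT against control the log2 differences were -0.08 for Mmp2, -0.25 for Mmp14, 0.20 for Mmp15, -0.07 for Timp2, 1.07 for Timp3 (95% interval 0.01 to 2.13) and 0.53 for Timp4 (95% interval -0.02 to 1.07). The value of Timp3 was 0.31 without control replicate 1, where that gene was low.

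**Figure D2:**
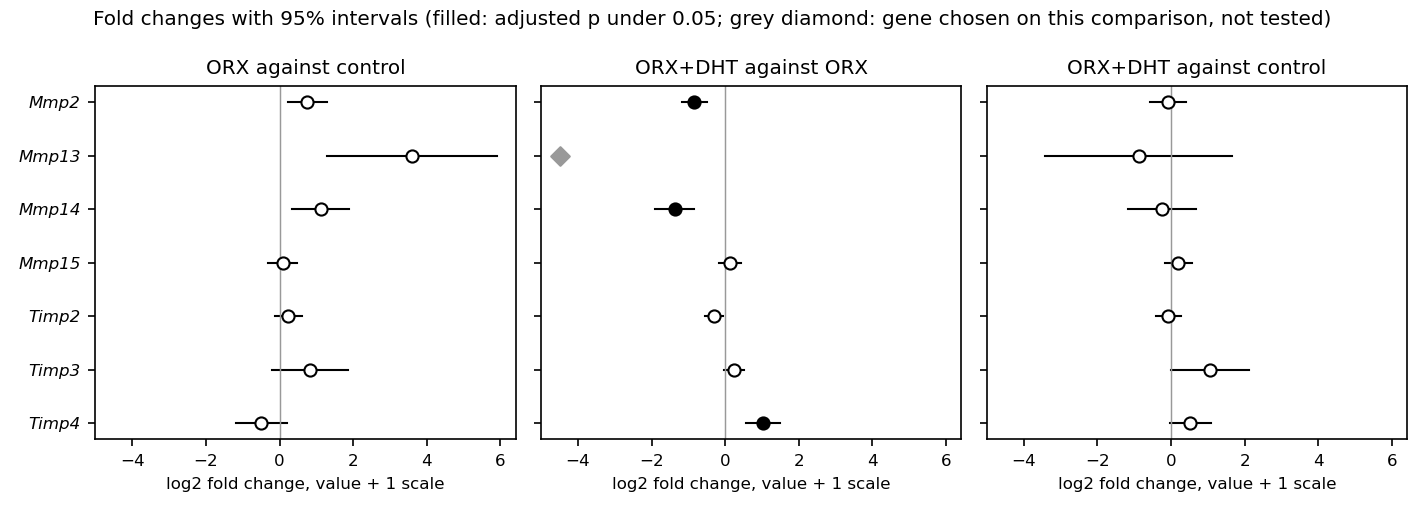
Log2 fold changes on the value + 1 scale with 95% intervals for the 7 genes tested, in ORX against control (left), ORX+DHT against ORX (middle) and ORX+DHT against control (right). Filled points passed the limma test at an adjusted p under 0.05, and the grey diamond is Mmp13 in the comparison it was chosen on. Mmp2 and Mmp14 lie right of 0 on the left panel and left of 0 in the middle, and Timp4 lies right of 0 in the middle.

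Summed per kilobase of exon, the 6 protease genes came to 132.1, 83.6 and 94.7 normalised counts in ORX, 38.8, 44.2 and 48.6 in ORX+DHT and 50.2, 34.6 and 74.7 in controls. The ORX sums lay above all others. Inhibitor sums were 83.6, 74.2 and 96.5 in ORX, 81.9, 84.4 and 83.6 in ORX+DHT and 74.3, 64.1 and 94.5 in controls, and the groups overlapped. As a percentage of the inhibitor sum, the protease sum lay between 98.1% and 158.0% in ORX, between 47.3% and 58.1% with DHT and between 54.0% and 79.0% in controls. Mmp13 made up 33.9%, 26.7% and 34% of the protease sum in the ORX libraries, at most 3.91% with DHT, and 3.72%, 0% and 30.4% in controls. Since Mmp13 was chosen for its difference, these sums are a description.

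**Figure D3:**
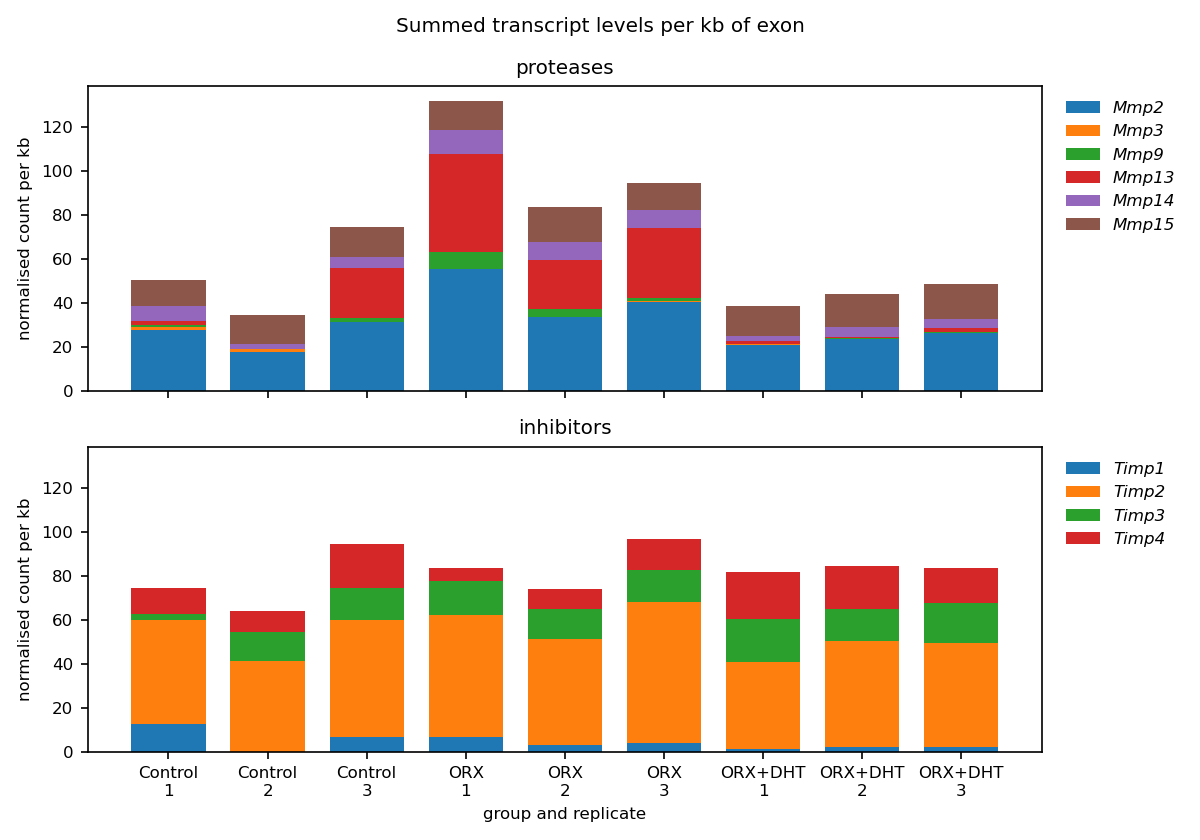
Stacked bars of normalised counts per kilobase of exon in each library, for the 6 protease genes (top) and the 4 inhibitor genes (bottom), on the same vertical axis. Protease bars reach 83.6 to 132.1 in the ORX libraries and at most 48.6 with DHT, while inhibitor bars stay between 64.1 and 96.5 in all libraries.

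The annotation holds 22 protein-coding genes of the metalloproteinase family, of which 17 are listed in either table. Mmp13 sits at one end of a cluster of 9 of them on chromosome 9, spread over 427 kb. The order is Mmp13, Mmp12, Mmp1b, Mmp3, Mmp10, Mmp8, Mmp27, Mmp20 and Mmp7, and 5 of the 9 are listed. Of its listed neighbours, Mmp12 (macrophage elastase), Mmp8 (neutrophil collagenase) and Mmp27 had 0 to 1 reads per library and Mmp3 had 0 to 2. No other family gene reached the minimum level. The highest were Mmp28 with 2 to 12 reads per library, Mmp11 with 3 to 10 and Mmp23 with 1 to 9.

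Other matrix proteases and their inhibitors were read beside these genes. Lists are described by their counts, read beside 1.7% of all genes called lower and 2.38% called higher with DHT against ORX. The median over all genes tested was 0.01 in that comparison. Among cathepsins, lysosomal proteases that can also act on matrix, 3 of 10 tested fell with DHT and 1 rose, with a median of -0.22. Ctsk, the collagen-cutting cathepsin of osteoclasts, fell by 1.47 (adjusted p = 0.00645), from a mean of 33.2 to 10.8 normalised counts. Ctsl fell by 0.63 (0.00105) and Ctsb fell by 0.34 (0.0427), and the aspartic protease Ctsd rose by 0.43 (0.0161), all by limma. Of 10 proprotein convertases and other proteases 2 fell: Fap, a serine protease of activated fibroblasts (-1.48, limma adjusted p = 0.0113), and Prss23 (-0.68, 0.00514). Fap, at 10.1, 4.83 and 9.88 normalised counts with DHT, reached the minimum level only through the ORX libraries. Furin-type convertases, which activate the membrane-type enzymes, are in this list, and none of them was called.

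No ADAM or ADAMTS gene of 12 tested was called (median 0.21), and neither was any of 3 plasminogen system genes (median 0.51). Of 8 other protease inhibitors only Serpinb6a, an intracellular serine protease inhibitor, was called, higher by 1.31 (limma adjusted p = 4.57e-07). Among 18 tested genes for uptake, induction and control of metalloproteinases, 2 rose: Bsg (basigin, a surface protein that induces these enzymes) by 0.42 (limma adjusted p = 0.00324) and Jun, a subunit of AP-1, by 0.53 (0.0231).

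Among 21 tested matrix genes, many of them collagens and other substrates of collagenase 3, 7 fell with DHT and 2 rose. The list median was -0.40, and over all genes 1.7% were called lower and 2.38% higher. The largest falls were in Spp1 (osteopontin, -2.78, limma adjusted p = 3.5e-05), Tnc (tenascin C, -1.70, 0.000459), Col14a1 (-1.27, 0.0345), Col1a1 (-1.18, 2.89e-06) and Col1a2 (-1.0, 7.02e-06). Spp1, with means of 39.9 normalised counts in ORX and 4.93 with DHT, reached the minimum level only through the ORX libraries. Its fall is therefore a description. The 2 that rose, named after their values were seen, were the basement membrane collagens Col4a1 (0.41, limma adjusted p = 0.0377) and Col4a2 (0.42, 0.0103). In ORX against control no gene of any list was called. All 21 tested matrix genes had positive differences there, with a median of 0.56 against -0.008 over all genes tested. Groups did not overlap for 7 of them, all higher in ORX, where 6.28% of all genes were higher without overlap. In ORX+DHT against control no gene of any list was called.

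Of the 27 called list genes that are not among the 10, counting cell type markers, 11 passed in every alternative setting that tested them. Among these were Serpinb6a, Ctsl, Tnc, Col1a1 and Col1a2. Spp1 and Ibsp are also among the 11, but the ORX libraries alone brought them to the minimum level, so nothing is read from their passing. Another 15 of the 27 lost the call with all 9 libraries in 1 fit, including Ctsk, Ctsb, Ctsd, Prss23, Bsg, Jun, Col14a1, Col4a1 and Col4a2, and Fap lost it without ORX replicate 3. Among the 27, Ibsp, Spp1, Tnn, Fap and Chad reached the minimum level only through the ORX libraries, so their falls are a description.

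**Figure D4:**
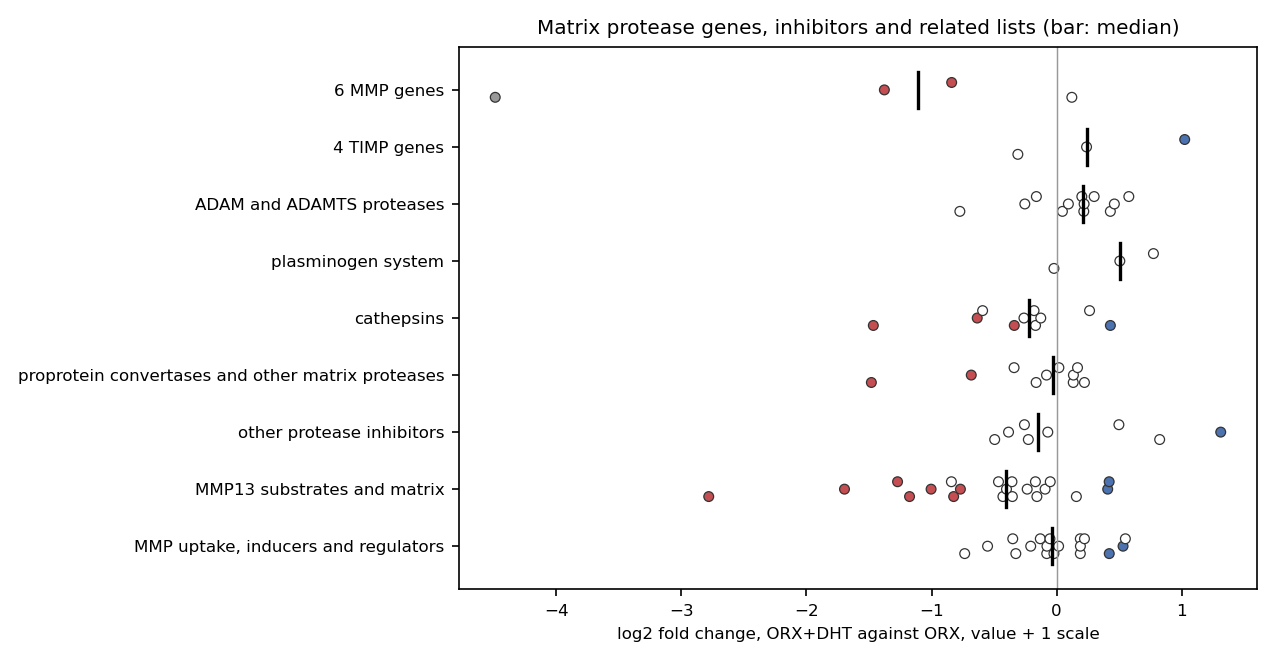
Log2 fold changes on the value + 1 scale in ORX+DHT against ORX for every tested gene of 9 lists, with black bars at list medians, red points for genes that fell, blue for genes that rose and open points for genes that did not pass. Grey marks Mmp13, which was chosen on this comparison and is not tested. Called genes lie to both sides of 0 among the cathepsins and the matrix genes.

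The genes whose levels followed Mmp13 most closely over the 9 libraries were, in order, Ibsp (Pearson r = 0.989), Col12a1 (0.984), Tnn (0.983), Spp1 (0.967), Col11a1 (0.953), Col1a2 (0.947), Col1a1 (0.947) and Postn (0.94), out of 8631 genes ranked. Ibsp encodes bone sialoprotein, Tnn tenascin N and Postn periostin, and the rest are osteopontin and collagens. Ibsp stood at 55.0, 48.6 and 62.9 normalised counts in ORX, 2.03, 0.967 and 5.93 in ORX+DHT and 4.99, 0 and 33.8 in controls, with control replicate 3 high as for Mmp13. Among the 10 genes, Mmp2 had an r of 0.903 with Mmp13 (rank 12), Mmp14 0.78 (rank 92), Timp2 0.773 (rank 99), Timp3 0.145, Mmp15 -0.096 and Timp4 -0.333. The points share libraries and groups, so these values describe likeness and carry no p.

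**Figure D5:**
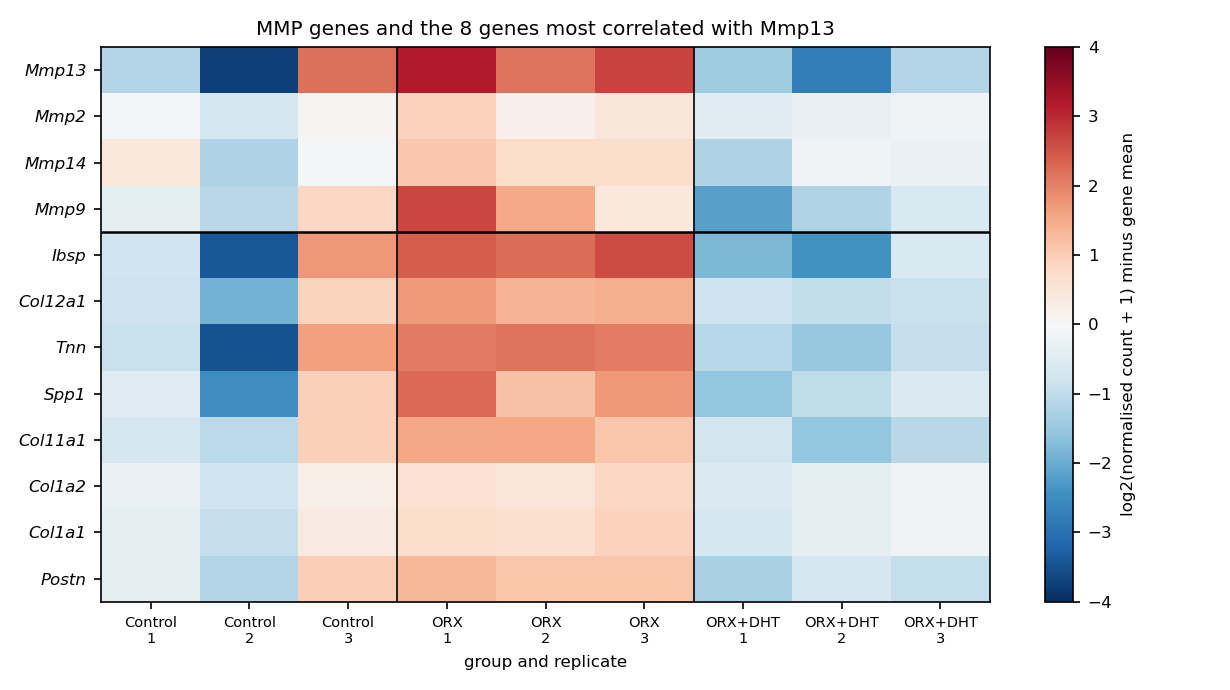
Heat map of log2(normalised count + 1) minus each gene's mean, for 4 metalloproteinase genes (above the line) and the 8 genes with the highest correlation with Mmp13 (below it), in the 9 libraries. Mmp13 and Ibsp are above their means in the 3 ORX libraries and in control replicate 3, and below them in the other 5 libraries.

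Several of these genes are used as markers of bone-forming cells, tendon cells or fibroblasts, so marker lists of other cell types were summed per library. Sums of tendon cell markers ran from 708 to 988 normalised counts for ORX, 361 to 444 with DHT and 356 to 521 for controls. Of 7 tested, 3 fell with DHT (Tnn, Col12a1 and Fmod), where 1.7% of all genes were called lower. Groups did not overlap for 5 of the 7, all lower (9.13% of all genes), and 1 had a positive difference. Scx had 4, 6 and 9 reads in ORX and 4, 6 and 2 with DHT. Angptl7 had 1, 13 and 34 reads in ORX and 8, 17 and 17 with DHT. Sums of activated fibroblast markers ran from 438 to 479, from 172 to 219 and from 161 to 390 in the same order. Of 4 tested, 3 fell (Postn, Tnc and Fap). The other tested gene, Acta2, overlapped, at 95.2, 131.3 and 145.6 normalised counts in ORX and 108.4, 126.6 and 116.6 with DHT. Postn alone ran from 227.7 to 265.0 in ORX and from 42.6 to 65.7 with DHT. Tnn and Fap reached the minimum level only through the ORX libraries, so their falls are a description. Fibroblast marker sums ran from 3475 to 4961, from 2611 to 3435 and from 2018.9 to 3438 in that order. Of 10 tested, 2 fell (Col1a1 and Lum). The ORX sums lay above the ORX+DHT sums without overlap in each of these lists. Gene by gene, only 2 of the 10 fibroblast markers lay lower with DHT without overlap. Of these 10 markers, 3 had positive differences with DHT and 7 negative ones (median -0.17).

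Sums of markers of bone-forming cells ran from 110.9 to 137.3 for ORX, from 48.3 to 50.4 with DHT and from 37.6 to 89.4 for controls. Ibsp was the 1 of 2 tested genes that fell, and the defining markers Bglap and Bglap2 had 0 to 1 reads per library and Sp7 and Dmp1 0 to 2. Runx2, which directs bone cell fate, had 7, 5 and 6 reads in ORX, 1, 1 and 0 with DHT and 0, 1 and 1 in controls. Those of bone-resorbing cells ran from 38.1 to 76.6, from 10.9 to 17.4 and from 6.63 to 31.2, with Ctsk the only one tested. The osteoclast phosphatase Acp5 had 21, 14 and 10 reads in ORX, 1, 1 and 1 in ORX+DHT and 8, 0 and 6 in controls. Sums for cartilage cells ran from 52.0 to 88.5, 21.3 to 30.0 and 13.3 to 48.7, with Chad the 1 of 2 tested that fell. The 2 tested, Chad and Comp, lay lower with DHT without overlap (9.13% of all genes). Sox9, with 6, 4 and 10 reads in ORX and 8, 2 and 5 with DHT, overlapped, as did Col2a1 and Col9a1. Ibsp, Chad and Comp reached the minimum level only through the ORX libraries, so their falls are a description. No other gene of the bone-forming and cartilage lists was called. The sums of these lists, not every gene in them, moved with Mmp13, Mmp2 and Mmp14. The lists hold Ibsp, Col12a1, Tnn, Postn and Col1a1. Those genes are among the 8 most correlated with Mmp13, so the likeness to Mmp13 is partly set by that choice. Col1a1 and Tnc are also in the matrix list, and Fap and Ctsk in the protease lists. The part of such cells in the results was not tested.

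Sums of macrophage markers ran from 79.3 to 162.0 for ORX and from 117.0 to 158.1 with DHT, with 0 of 6 tested called. The 3 neutrophil markers in both tables came to 0 to 4.05 normalised counts per library. Both sums overlapped between ORX and ORX+DHT, and the part of such cells in the reads of Mmp9 was not tested.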

How the data were processed

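RNA was measured in 9 libraries of polyA RNA (500 ng input, strand-keeping kit, per the labels' protocols). The authors deposited 2 tables of normalised counts (a signal, reads over 1 factor per library): control with ORX (14596 genes) and ORX with ORX+DHT (14675). The submitters' processing notes name GRCm38, Trim Galore 0.6.7, HISAT2 2.2.1, featureCounts 2.0.1 and DESeq2 1.36.0, with no roles. Columns called sham were taken as the controls, the only group without orchiectomy, by replicate number, and 0 columns stayed unmapped. Every value was a whole multiple of 1 step per library (100.0% whole within 0.01), so reads were recovered. Levels were put on 1 scale by median-of-ratios over 10885 shared genes with reads in all libraries, and exon lengths and positions came from GENCODE M21.

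The test was limma 3.58.1 (R 4.3.3, eBayes with trend) applied to log2(value + 1) of genes averaging at least 10 normalised counts, with Benjamini-Hochberg adjustment and a threshold of 0.05, in the authors' own table or, for ORX+DHT against control, on the joint scale. Tests were checked on simulated data. Alternatives were pseudocounts of 0.1 and 10, no minimum, a minimum of 50, TMM and quantile scaling, 1 shared fit of all 9 libraries, a replicate block, leaving out single libraries, and edgeR 4.0.16 and DESeq2 1.42.0 on recovered reads. edgeR with no minimum, and Mmp9 with no minimum and each library left out, were added after seeing the data.

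The 10 genes and all lists were chosen with earlier results of these data known. Named are the 10 genes, up to the 5 largest called changes per list and comparison, and the 8 genes most correlated with Mmp13. No list was tested.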

Additional observations from a re-analysis of the deposited data

How the results depend on the processing

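Genes called in ORX against control numbered 5, and 16 with no minimum level, 23 with all 9 libraries in 1 fit, 28 with DESeq2, 110 with edgeR and no minimum, and 1 to 51 with a library left out (51 without control replicate 1, 21 without control replicate 3, 1 or 2 without an ORX library). Of the 10 genes, 0 were called there, 4 with edgeR and no minimum, and 0 to 1 with a library left out. In ORX+DHT against ORX 358 genes became 123 with all 9 libraries in 1 fit, 571 with the replicate block, 221 with DESeq2, 558 with edgeR and no minimum, and 223 to 350 with a library left out. The 4 called of the 10 became 2 at a minimum of 50, which left Mmp13 and Mmp14 untested, and 1 with all 9 libraries in 1 fit. That 1 is Mmp13, chosen on this comparison, so 0 of the others were called. The count stayed at 4 with any library left out. Without ORX+DHT replicate 1, Mmp9 stood in place of Timp4, but it reached the minimum level there only through ORX, and with no minimum it missed (limma adjusted p = 0.0939). In ORX+DHT against control 3 genes became 6 with quantile scaling, 11 with all 9 libraries in 1 fit, 13 with DESeq2, 8 with edgeR and no minimum, and 0 to 66 with a library left out (66 without control replicate 1, 0 without ORX+DHT replicate 3). The cause of these shifts was not tested. With quantile scaling the share of calls that were higher went from 58.4% of 358 to 49.2% of 327 in ORX+DHT against ORX, turning the majority. On far fewer calls it went from 20% of 5 to 33.3% of 6 in ORX against control and, for ORX+DHT against control, from 33.3% of 3 to 66.7% of 6. Small differences changed sign with a library left out. Mmp15 in ORX against control ran from -0.018 (without ORX replicate 2) to 0.16. For ORX+DHT against control, Mmp14 ran from -0.72 to 0.096 (without control replicate 1; 0.09 without ORX+DHT replicate 1), Mmp2 from -0.33 to 0.078 (without control replicate 3; 0.0028 without ORX+DHT replicate 1) and Timp2 from -0.16 to 0.023 (without ORX+DHT replicate 1; 0.022 without control replicate 3). Samples with the same number did not deviate together in every pair (r from -0.168 to 0.153), so the numbers were not taken as pairs. In ORX+DHT against ORX all 6 libraries correlated best with their own number, a hint from the data only. The replicate block called 0, 4 and 0 of the 10 genes in the 3 comparisons. It called 5 of all 8631 genes in ORX against control and 571 of all 8770 in ORX+DHT against ORX. Depth limits Mmp3, Mmp9 and Timp1, with 0 to 28 reads per library.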

Other observations

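Marker sums of 4 other cell types overlapped between the ORX libraries with and without DHT. Endothelial sums ran from 787 to 976 normalised counts for ORX and from 919 to 1048 with DHT, with 0 of 7 tested called. Sums for muscle stem cells ran from 88.5 to 110.9 and from 83.1 to 103.4 (0 of 2 called), and those for Schwann cells from 191 to 217 and from 143 to 195 (0 of 3). Red blood cell sums ran from 87.8 to 252.3 and from 184.4 to 211.5 (0 of 4). Sums for immature fibres ran from 85.2 to 106.0 for ORX and from 59.3 to 80.2 with DHT, without overlap, yet 0 of 3 tested were called. Of 6 muscle fibre genes 2 rose with DHT, where 2.38% of all genes were called higher. These were Acta1 by 0.47 (limma adjusted p = 0.00357) and Myh1 by 0.47 (0.00755). Another 3 of the 6 had negative differences, none of them called.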
